A study of Mus musculus with 14 samples.

Results

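The genes of the proteasome were followed through microglia, the resident macrophages of the brain, of mice with floxed Rheb, with or without a microglial Cre, given LPS or PBS. The members are the protein-coding genes whose symbols name a proteasome subunit of the Psma, Psmb, Psmc, Psmd or Psme families, apart from the immunoproteasome genes Psmb8, Psmb9 and Psmb10. A member also had to reach 1 TPM (transcripts per 1000000, a read share corrected for gene length) in at least 3 of the 14 libraries. Of 40 genes that match the name pattern, 39 are members, out of 41739 genes in the table and 18724 that pass the same limit on TPM. All 39 stood at 1 TPM or more in all 14 libraries. The gene left out, Psmb11, the beta subunit of the thymus, was at most 0.214 TPM, while the lowest member, Psma8, was at least 2.12 TPM. The limit on TPM was the measured value in the choice of members, and no difference between groups entered it.

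The proteasome is the barrel-shaped protease that cuts up proteins tagged with ubiquitin. Its core is a stack of rings of alpha subunits (Psma genes), which gate the barrel, around rings of beta subunits (Psmb genes), of which Psmb5, Psmb6 and Psmb7 carry the active sites. A regulatory particle caps the core: its base holds the ATPases Psmc1 to Psmc6 and the scaffolds and ubiquitin receptor Psmd1, Psmd2 and Psmd4, and its lid, with the deubiquitinase Psmd14, removes ubiquitin. Psmd5, Psmd9 and Psmd10 are not parts of the finished enzyme but chaperones of base assembly. Psme1 and Psme2 form an activator ring induced by interferon that is tied to antigen presentation, and Psme3 and Psme4 are activators found mainly in the nucleus. In mouse fibroblasts, mTORC1 has been reported to raise proteasome genes through the transcription factor Nfe2l1. Rheb is the GTPase that activates mTORC1, the kinase complex that couples growth to nutrients. By role, the members are 8 alpha ring genes, 7 beta ring genes, 9 base genes, 8 lid genes, 3 base assembly chaperones and 4 activators.

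Both KO groups came from mice with floxed Rheb alleles (Rheb F/F) that carried Tmem119-cre ER, a Cre recombinase driven from the microglial gene Tmem119 and switched on by tamoxifen. Both WT groups were Rheb F/F mice without Cre, and all groups received tamoxifen. At 8 weeks of age the mice received daily intraperitoneal injections for 4 days of LPS, a bacterial endotoxin, at 1.0 mg/kg, or of PBS, and microglia were purified with magnetic beads. There were 4 KO LPS, 4 WT LPS, 3 KO PBS and 3 WT PBS libraries. All KO and no WT libraries carried Cre, so Rheb loss and Cre cannot be told apart. Nothing in the labels ties each library to its own mouse, so p-values measure the spread between libraries, which may be technical.

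Reads recovered from the TPM values came to about 7998000 in KO_LPS_4 and 15686000 to 32304000 in the other libraries, and a single member had between 21 reads (Psma8) and 4700 reads (Psmd2) in a library. The 10 microglial markers checked were all present, and their summed level was 17926 to 24448 TPM in KO LPS, 23771 to 27958 TPM in WT LPS, 33957 to 36940 TPM in KO PBS and 29049 to 37706 TPM in WT PBS libraries. The design text describes female mice, but the PBS libraries held the Y-linked transcript Ddx3y at 111 to 146 TPM and Xist at 0.147 TPM or less, while the LPS libraries held Xist at 255 to 574 TPM and Ddx3y at 0.270 TPM or less. Treatment and sex, or any step that differed between the LPS and the PBS libraries, therefore cannot be told apart. The small-RNA feature Gm23935 took 4.04% to 15.4% of all TPM in LPS libraries and 0.0566% to 0.248% in PBS libraries, a share of TPM not left for other genes. Growth hormone transcripts marked KO_LPS_3 (19672 TPM) and WT_PBS_914 (78126 TPM) as rich in pituitary RNA. Rheb was 25.5, 22.9, 23.1 and 19.5 TPM in KO LPS and 31.8, 32.5, 33.6 and 25.1 TPM in WT LPS libraries (log2 fold change -0.42, SE 0.11, adjusted p = 0.11). It was 16.6, 19.0 and 19.1 TPM in KO PBS and 29.7, 32.2 and 34.5 TPM in WT PBS libraries, a fall past the test (log2 fold change -0.79, SE 0.12, adjusted p = 0.0163) that was not called without KO_PBS_911, KO_PBS_912, WT_PBS_913 or WT_PBS_914 (adjusted p of 0.0604 to 0.0946).

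Promoter sequences are shown for the 4 members on which the comparisons below turn, Psmd5, Psmd11, Psma6 and Psme2. Each is the 250 bases before the annotated gene start, 5′ to 3′ on the strand of the gene, from RefSeq on GRCm38.p6. The Psmd5 promoter lies at chr2:34870963-34871212 on the minus strand, that of Psmd11 at chr11:80428365-80428614 on the plus strand, that of Psma6 at chr12:55398575-55398824 on the plus strand and that of Psme2 at chr14:55591102-55591351 on the minus strand. Capitals mark matches, on either strand, to TGANNNNGC, the core of the antioxidant response element bound by Nfe2l1 and its relatives.
Psmd5: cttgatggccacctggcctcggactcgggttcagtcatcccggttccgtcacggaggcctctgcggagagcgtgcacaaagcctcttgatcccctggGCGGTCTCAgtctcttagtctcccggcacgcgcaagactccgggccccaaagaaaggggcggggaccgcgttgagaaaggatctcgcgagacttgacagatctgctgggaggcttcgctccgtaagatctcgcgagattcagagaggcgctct
Psmd11: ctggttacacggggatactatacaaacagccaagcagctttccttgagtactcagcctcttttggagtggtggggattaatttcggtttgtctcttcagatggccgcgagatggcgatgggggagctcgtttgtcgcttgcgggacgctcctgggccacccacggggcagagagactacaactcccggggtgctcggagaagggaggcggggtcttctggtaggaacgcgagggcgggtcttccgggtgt
Psma6: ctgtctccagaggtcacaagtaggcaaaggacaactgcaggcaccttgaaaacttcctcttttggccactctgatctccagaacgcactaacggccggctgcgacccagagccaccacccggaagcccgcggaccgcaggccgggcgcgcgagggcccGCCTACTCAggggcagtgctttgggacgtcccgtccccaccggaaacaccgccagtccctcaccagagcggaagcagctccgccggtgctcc
Psme2: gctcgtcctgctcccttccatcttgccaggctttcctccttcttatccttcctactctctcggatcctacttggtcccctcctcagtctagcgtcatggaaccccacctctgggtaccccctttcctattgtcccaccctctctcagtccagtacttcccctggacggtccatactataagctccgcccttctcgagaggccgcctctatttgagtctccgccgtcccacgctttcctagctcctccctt
Psmd5 and Psma6 each held 1 match, on the minus strand of the gene, starting 153 and 92 bases before the gene start, and Psmd11 and Psme2 held none. Among the 32 members with a promoter in the table, 10 (31.2%) held the motif, against 35.2% of 32851 promoters of the same length. They were 2 of 7 alpha ring, 3 of 4 beta ring, 2 of 8 base, 1 of 6 lid, 2 of 3 base assembly chaperone and 0 of 4 activator promoters. The core of the interferon-stimulated response element, GAAANNGAAA on either strand, was in 3 of the 32 (9.38%: Psmb3, Psmd4 and Psmd9), against 2.98% of all promoters. Each member counted with 1 promoter, the one nearest the start of its principal transcript. The 32851 were all promoters, without that choice, so the shares come from unlike sets. A match describes letters and is not a bound site.

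Together the members made up 0.313% of all TPM in KO LPS, 0.327% in WT LPS, 0.340% in KO PBS and 0.345% in WT PBS libraries, or 3133 ± 126 TPM (SD, n = 4), 3265 ± 387 TPM (n = 4), 3400 ± 86.2 TPM (n = 3) and 3453 ± 182 TPM (n = 3) in that order. The spread was widest in WT LPS. There, WT_LPS_3 had the highest value of the group for 34 of 39 members and WT_LPS_4 the lowest for 31, and WT_LPS_4 also held the 15.4% share of Gm23935. In KO LPS, the shallow KO_LPS_4 was lowest for 22 members.

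TPM is a level per length, so members can be compared with each other on it. Averaged over 14 libraries, the highest was Psma6, an alpha ring subunit, at 248 TPM, followed by the ATPase Psmc1 at 162 TPM, and the activators Psme1 at 152 TPM and Psme2 at 140 TPM. The lowest were Psma8, a testis-type alpha subunit, at 4.96 TPM, and the assembly chaperones Psmd9 at 8.63 TPM and Psmd5 at 16.8 TPM. With all exons of a gene as its length, the class medians were 76.8 TPM for the alpha ring, 98.1 TPM for the beta ring, 92.3 TPM for the base, 67.3 TPM for the lid and 115 TPM for the activators. With the length of the principal transcript, chosen after seeing the data, the medians in reads per kilobase per 1000000 reads were 47.2 for the alpha ring, 47.0 for the beta ring, 43.6 for the base, 34.6 for the lid and 53.7 for the activators, so that the beta ring and base no longer stood above the alpha ring. Without Psma8 the alpha ring median was 80.4 TPM on the first scale and 58.7 on the second, there above all other classes. With the principal transcript, Psme1 was the highest member at 90.6, ahead of Psma6 at 88.4. Within a ring or particle, whose subunits enter the enzyme in equal numbers, the mean TPM of the genes spanned 3.89-fold in the beta ring (Psmb4 over Psmb7), 3.93-fold in the base and 2.97-fold in the lid. With the principal transcript the span was 2.26-fold in the beta ring, 2.13-fold in the base and 2.25-fold in the lid. The span of the alpha ring without Psma8 was 4.58-fold and 4.31-fold on these scales, with Psma6 the highest alpha gene on both. That of the activators was 3.44-fold and 5.34-fold.

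**Figure D1:**
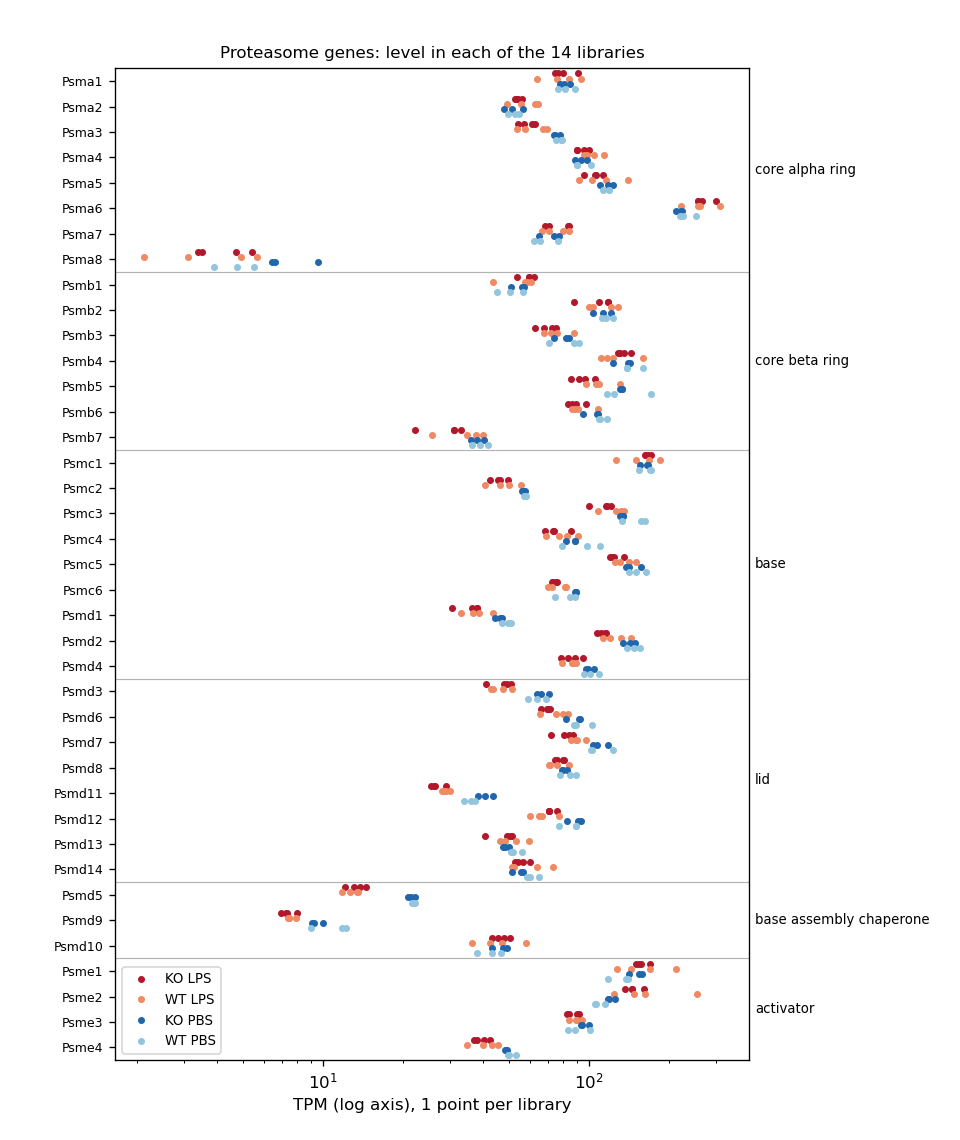
Level of each of the 39 proteasome genes in each of the 14 libraries, in TPM on a log axis, grouped by subunit class and coloured by group. Psma8, Psmd9 and Psmd5 lie lowest, and all other genes lie between 22.2 (Psmb7) and 310.1 TPM (Psma6).

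Under LPS, no proteasome gene differed between KO and WT libraries past the test. Of 39 members, 0 were called at an adjusted p under 0.05 (limma on log2(TPM + 1), Benjamini-Hochberg over 18724 genes), where 0.497% of all genes were (0.256% higher and 0.24% lower). At an unadjusted p under 0.05 stood 1 member (2.56%), against 2183 genes (11.7%) of all. The log2 fold changes ran from -0.23 (Psmb7) to 0.13 (Psma8) with a median of -0.06, against 0.07 for all genes. For 36 of 39 members the 95% interval of the log2 fold change lay within ±0.5. No member had groups without overlap in either direction, where 4.22% of all genes were higher and 1.96% lower without overlap.

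The members with the smallest p show the size of these differences. Psmd2, a scaffold of the base, was 116, 115, 111 and 107 TPM in KO LPS libraries and 119, 132, 143 and 113 TPM in WT LPS libraries (log2 fold change -0.17, SE 0.08, adjusted p = 0.407). Psmd7, the lid partner of the deubiquitinase Psmd14, was 83.6, 86.8, 80.2 and 71.9 TPM in KO LPS libraries and 88.9, 85.5, 97.3 and 89.7 TPM in WT LPS libraries (log2 fold change -0.16, SE 0.08, adjusted p = 0.462). For both genes the lowest WT LPS libraries overlapped the KO LPS libraries. In the other direction, the lid subunit Psmd12 was 70.6, 70.9, 70.6 and 75.6 TPM in KO LPS and 66.5, 65.0, 77.2 and 59.8 TPM in WT LPS libraries (log2 fold change 0.10, SE 0.08, adjusted p = 0.67). The beta ring subunit Psmb1 was 59.6, 62.1, 59.3 and 53.5 TPM in KO LPS and 58.2, 57.2, 60.6 and 43.6 TPM in WT LPS libraries (log2 fold change 0.10, SE 0.10, adjusted p = 0.755). KO LPS and WT LPS overlapped in both. Among the catalytic subunits, the 95% intervals of the log2 fold change were -0.47 to 0.03 for Psmb5, -0.24 to 0.11 for Psmb6 and -0.53 to 0.08 for Psmb7.

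Under PBS, no proteasome gene passed the test between KO and WT either. Again 0 of 39 members were called, where 1.02% of all genes were (0.796% higher and 0.224% lower), and 1 member (2.56%) stood at an unadjusted p under 0.05, against 2935 genes (15.7%). The log2 fold changes ran from -0.19 (Psmd9) to 0.56 (Psma8), with a median of -0.03, against -0.00 for all genes, and 36 of 39 intervals lay within ±0.5. With 3 libraries a group, 4 members were higher without overlap (Psma8, Psmd11, Psme1 and Psme2) and 5 lower (Psmb6, Psmd1, Psmd13, Psmd14 and Psme4), where 14.9% and 10.9% of all genes were.

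Psmd11, the lid subunit that bridges the lid to the core, was 38.2, 43.4 and 40.4 TPM in KO PBS libraries and 33.8, 36.0 and 37.4 TPM in WT PBS libraries (log2 fold change 0.18, SE 0.08, adjusted p = 0.29). Psma8, the testis-type alpha subunit, was 9.53, 6.57 and 6.41 TPM in KO PBS libraries and 4.76, 5.52 and 3.88 TPM in WT PBS libraries (log2 fold change 0.56, SE 0.28, adjusted p = 0.351). All KO PBS libraries lay above all WT PBS libraries in both genes, with p = 0.1 for each in a two-sided exact permutation test, the smallest that 3 libraries against 3 allow. The ATPase Psmc3 was 130.4, 134 and 134 TPM in KO PBS and 162, 157 and 133 TPM in WT PBS libraries (log2 fold change -0.17, SE 0.10, adjusted p = 0.429). The assembly chaperone Psmd9 was 9.10, 9.27 and 9.99 TPM in KO PBS and 11.7, 12.2 and 8.98 TPM in WT PBS libraries (log2 fold change -0.19, SE 0.13, adjusted p = 0.513). WT_PBS_914, the library rich in pituitary RNA, fell inside or next to the KO PBS range in these last genes.

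No member showed a difference of the KO effect between LPS and PBS past the test either. For the interaction, 0 of 39 members were called, as were 0% of all genes, and 1 member (2.56%) stood at an unadjusted p under 0.05, against 1780 genes (9.51%). The member with the smallest p was Psmd11, where the KO effect was -0.11 under LPS and 0.18 under PBS on the log2 scale (interaction -0.29, SE 0.10, adjusted p = 0.472). Estimates ran from -0.43 for Psma8 (95% interval -1.23 to 0.36) to 0.20 for the beta ring subunit Psmb4 (95% interval -0.15 to 0.54). Psmb4 was 135, 144, 131 and 128 TPM in KO LPS, 122, 117, 159.8 and 111 TPM in WT LPS, 122, 143 and 139.9 TPM in KO PBS and 138, 139 and 159 TPM in WT PBS libraries. All 4 groups overlapped. The interaction has wider intervals than either comparison, and 31 of 39 lay within ±0.5.

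**Figure D2:**
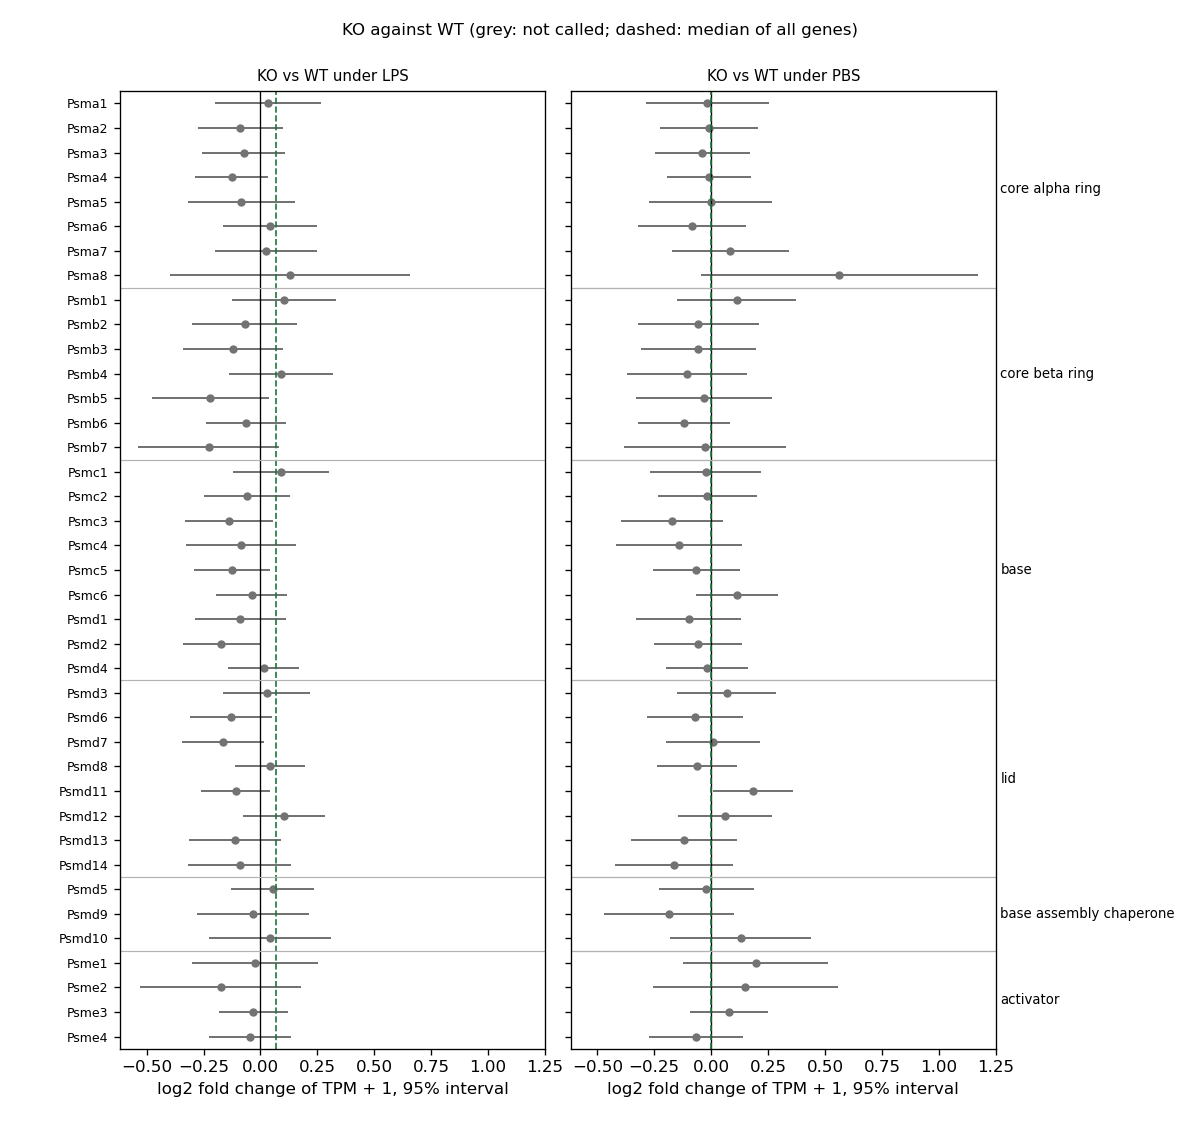
Log2 fold change of TPM + 1, KO over WT, with its 95% interval, for each of the 39 proteasome genes under LPS (left) and PBS (right); the dashed line is the median of all genes, and grey means not called. The points lie between -0.23 and 0.13 under LPS and, apart from Psma8 at 0.56, close to 0 under PBS.

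LPS libraries differed from PBS libraries in the balance between parts of the proteasome: relative to the alpha ring, the beta ring, base, lid and base assembly chaperones were lower under LPS in both genotypes. In KO, the median log2 fold change, LPS over PBS, was 0.00 for the alpha ring, -0.20 for the beta ring, -0.23 for the base, -0.33 for the lid, -0.32 for the base assembly chaperones and -0.04 for the activators. In WT it was 0.03 for the alpha ring, -0.18 for the beta ring, -0.25 for the base, -0.28 for the lid, -0.48 for the base assembly chaperones and 0.13 for the activators. The median of all genes was -0.22 in KO and -0.28 in WT, so the alpha ring stood above that of all genes and the base and lid close to it.

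Counts over all members stand beside those over all genes. In KO, 1 of 39 members was called higher and 14 lower, where 7.82% of all genes were higher and 26.9% lower (34.7% in all), and the median of the members was -0.21. In WT, 1 was called higher and 15 lower, where 7.95% of all genes were higher and 34.1% lower (42% in all), and the median of the members was -0.18. Called lower in both genotypes were 12 members, 85.7% of the KO list and 80% of the WT list, and 30.8% of members, where 20.6% of all genes were (76.6% of the KO list and 60.4% of the WT list of all genes): Psma3, Psmc2, Psmd1, Psmd2, Psmd3, Psmd4, Psmd5, Psmd6, Psmd7, Psmd11, Psmd12 and Psme4. Without overlap between the groups, 20 of 39 members were lower and 2 higher in KO, where 31.3% and 9.52% of all genes were, and 12 lower and 1 higher in WT, where 37.4% and 8.45% were.

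These counts move with the scale. Median-of-ratios scaling, which brings the median of all genes to 0.00 in both genotypes, turned the members' median to 0.06 in KO and 0.14 in WT, with 7 called higher and 2 lower in KO and 10 higher and 1 lower in WT. On that scale 12.6% of all genes were higher and 10.2% lower in KO, and 16% higher and 13.3% lower in WT. The alpha ring genes Psma2, Psma4, Psma6 and Psma7 and the beta ring gene Psmb1 were higher on that scale in both genotypes, as was Psme2, while Psmd5 was lower in both and Psmd11 lower in KO. Psmc1 was also higher in KO, and Psmc6, Psmd10, Psme1 and Psme3 were higher in WT. On the TPM scale, 9 members were called lower in KO without KO_PBS_911 or without KO_PBS_912, where 21.6% and 18.5% of all genes were. Without WT_PBS_904, 8 members were called lower in WT, where 24.7% of all genes were.

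The contrast between classes does not depend on a scale shared by the libraries. Within each library, the median log2(TPM + 1) of the lid minus that of the alpha ring was -0.25, -0.33, -0.34 and -0.39 in KO LPS libraries and -0.06, -0.15 and -0.08 in KO PBS libraries. It was -0.31, -0.34, -0.23 and -0.22 in WT LPS libraries and -0.10, -0.17 and -0.19 in WT PBS libraries. Every LPS library lay below every PBS library in both genotypes. For the base minus the alpha ring, the range was 0.00 to 0.22 in KO LPS and 0.30 to 0.39 in KO PBS libraries, and 0.04 to 0.28 in WT LPS and 0.30 to 0.42 in WT PBS libraries, again without overlap. The beta ring minus the alpha ring was 0.09 to 0.29 in KO LPS and 0.32 to 0.43 in KO PBS libraries, and 0.08 to 0.44 in WT LPS and 0.45 to 0.50 in WT PBS libraries. The base assembly chaperones minus the alpha ring were -2.65 to -2.32 in KO LPS and -1.87 to -1.72 in KO PBS libraries, and -2.62 to -2.36 in WT LPS and -1.87 to -1.79 in WT PBS libraries, so these classes did not overlap either. The difference of the class medians of fold changes, lid minus alpha ring, was -0.33 in KO and -0.31 in WT, and without each library in turn it ran from -0.36 to -0.30 in KO and from -0.34 to -0.27 in WT. A factor per library cancels in this difference but for the 1 added to TPM. Quantile normalisation is not such a factor, and with it the WT value was -0.26. Over all 29 other settings the difference ran from -0.36 to -0.26 in KO and from -0.34 to -0.26 in WT. All of these settings kept Psma8, the lowest member, in the alpha ring. Without Psma8 the median log2 fold change of the alpha ring was 0.01 in KO and 0.13 in WT, against 0.00 and 0.03 with it. The WT lid thus stood further below the alpha ring without Psma8, and the WT activators, also at 0.13, no longer stood above it. The contrast between classes was chosen with earlier results of these data known, and no test is attached to it.

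**Figure D3:**
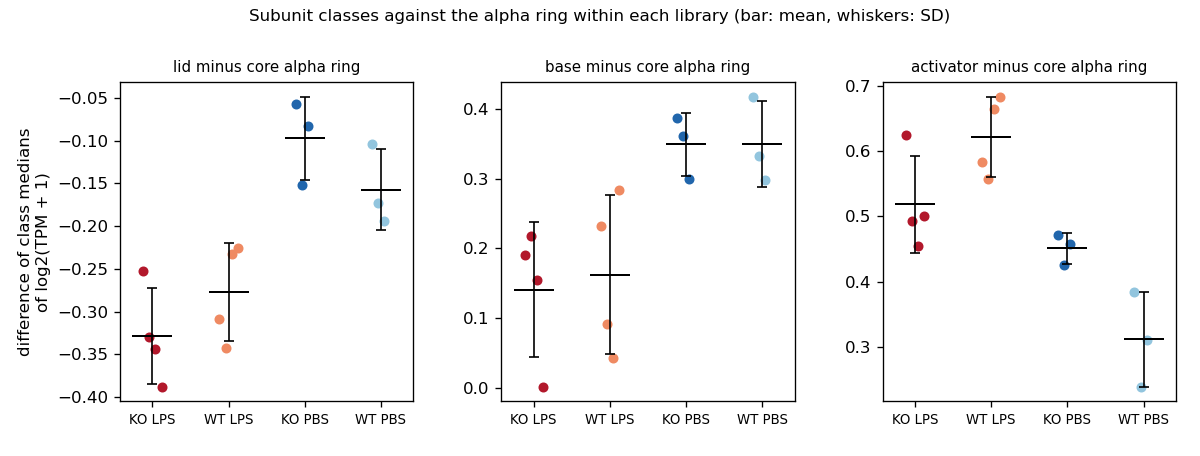
Median log2(TPM + 1) of the lid, base and activator genes minus that of the alpha ring genes, 1 point per library, with the mean as a bar and the SD as whiskers (n = 4 per LPS group, 3 per PBS group); the axes do not start at 0. Lid and base differences are lower in every LPS library than in every PBS library, while the activator difference is highest in WT LPS.

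Other measures also differed between LPS and PBS libraries. Beside the female transcripts and Gm23935, the summed level of 5 monocyte markers was 985 to 1566 TPM in KO LPS and 219 to 334 TPM in KO PBS libraries, and 933 to 1884 TPM in WT LPS and 202 to 901 TPM in WT PBS libraries. The 8 neutrophil markers summed to 11085 to 24075 TPM in KO LPS and 4911 to 7779 TPM in KO PBS libraries, and 8953 to 21308 TPM in WT LPS and 5447 to 22737 TPM in WT PBS libraries. The neutrophil sums thus overlapped in WT, while the microglial sum given above was lower under LPS in each genotype. Of the 10 microglial markers, 8 were called lower and 1 higher in KO, and 4 lower and 1 higher in WT. Shares of all genes were 26.9% lower and 7.82% higher in KO, and 34.1% and 7.95% in WT. Under median-of-ratios scaling, 4 microglial markers were lower and 1 higher in KO, and 2 lower and 1 higher in WT. On that scale, 10.2% of all genes were lower in KO and 13.3% in WT. None of the monocyte, neutrophil or microglial markers was at 0 in a whole group, and the part of other cells in the result was not tested. In such bulk samples, fewer cells of a type and less RNA per cell cannot be told apart.

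In the alpha ring, 1 of 8 genes was called lower in each genotype and 1 called higher in KO. Of all genes, 26.9% were called lower in KO and 34.1% in WT, and 7.82% were called higher in KO. Psma6, the highest member in TPM, was 257, 299.6, 257 and 264 TPM in KO LPS libraries and 211, 223 and 221 TPM in KO PBS libraries (log2 fold change 0.30, SE 0.10, adjusted p = 0.0357). It was 257, 310.1, 262 and 222 TPM in WT LPS libraries and 224, 252 and 219 TPM in WT PBS libraries (log2 fold change 0.17, SE 0.10, adjusted p = 0.187). All KO LPS libraries lay above all KO PBS libraries, while the WT groups overlapped, and the interaction did not pass (0.13, adjusted p = 0.794). The KO call was lost without KO_LPS_2, KO_LPS_4 or any 1 of the KO PBS libraries (adjusted p of 0.0524 to 0.106). Psma3 was called lower in both (-0.36, adjusted p = 0.00752 in KO, -0.33, adjusted p = 0.0112 in WT, and -0.09 in KO and 0.00 in WT, not called, under median-of-ratios scaling). Psma8, the lowest member, was 4.69, 3.39, 5.39 and 3.50 TPM in KO LPS and 4.90, 5.66, 3.11 and 2.12 TPM in WT LPS libraries, not past the test in KO (-0.70, adjusted p = 0.0545) or WT (-0.26, adjusted p = 0.443). The other 5 alpha genes had log2 fold changes between -0.15 and 0.15.

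In the beta ring, 1 gene of 7, a catalytic subunit, was called lower in each genotype. Of all genes, 26.9% were called lower in KO and 34.1% in WT. Psmb5, which cuts after hydrophobic residues and is the main target of proteasome inhibitor drugs, was 91.9, 105, 96.1 and 85.1 TPM in KO LPS libraries and 133, 133 and 131 TPM in KO PBS libraries, a fall past the test (log2 fold change -0.48, SE 0.13, adjusted p = 0.0107) that was -0.22 and not called under median-of-ratios scaling. It was 109, 97.3, 130.2 and 106 TPM in WT LPS libraries and 171, 124 and 117 TPM in WT PBS libraries, where the groups overlapped (log2 fold change -0.29, SE 0.13, adjusted p = 0.0787). Psmb6, which cuts after acidic residues, was 89.1, 97.3, 86.0 and 83.5 TPM in KO LPS and 94.6, 108 and 107 TPM in KO PBS libraries (log2 fold change -0.21, SE 0.09, adjusted p = 0.0742). In WT it fell, at 90.7, 86.5, 107 and 88.5 TPM in WT LPS and 117, 109 and 109 TPM in WT PBS libraries (log2 fold change -0.26, SE 0.09, adjusted p = 0.0255), a call lost without WT_LPS_1, WT_LPS_2, WT_LPS_4, WT_PBS_904 or WT_PBS_913 and turned to 0.07 under median-of-ratios scaling. Psmb7, which cuts after basic residues, was 30.9, 32.8, 30.9 and 22.2 TPM in KO LPS and 38.0, 40.4 and 35.9 TPM in KO PBS libraries (log2 fold change -0.38, SE 0.15, adjusted p = 0.0678), without overlap. It was 34.6, 37.7, 40.03 and 25.6 TPM in WT LPS and 41.7, 38.7 and 36.1 TPM in WT PBS libraries (log2 fold change -0.18, SE 0.15, adjusted p = 0.351), with overlap. KO_LPS_4 and WT_LPS_4 were the lowest libraries of their groups for Psmb7.

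In the base, 5 of 9 genes were called lower in each genotype, where 26.9% of all genes were in KO and 34.1% in WT. Psmc2, Psmd1, Psmd2 and Psmd4 were called in both, Psmc6 in KO and Psmc3 in WT, with log2 fold changes from -0.36 (Psmd1, a scaffold of the particle) to -0.21 (Psmd4, a ubiquitin receptor) in KO and from -0.37 (Psmd1) to -0.22 (Psmd2) in WT. Psmd1 was 37.7, 36.2, 37.7 and 30.5 TPM in KO LPS libraries and 44.2, 47.1 and 46.3 TPM in KO PBS libraries. In WT it was 36.7, 38.7, 43.5 and 32.9 TPM in LPS and 50.9, 47.1 and 49.5 TPM in PBS libraries. All LPS libraries lay below all PBS libraries of their genotype, and under median-of-ratios scaling the Psmd1 values were -0.10 in KO and -0.05 in WT and no longer called. Under that scaling Psmc6 turned to 0.00 in KO, Psmd4 turned to 0.05 in KO and 0.08 in WT, Psmd2 to 0.11 in WT, and Psmc2 and Psmc3 to 0.07 each in WT, so the direction of these base genes rests on the TPM scale. On that scale the KO calls of Psmd1 and Psmd2 and the WT call of Psmd1 held without each library in turn. The KO calls of Psmc2, Psmc6 and Psmd4 were each lost without any 1 of the KO PBS libraries, those of Psmc2 and Psmd4 also without KO_LPS_4, and that of Psmd4 also without KO_LPS_1, KO_LPS_3, WT_LPS_1, WT_LPS_2 or WT_PBS_913. In WT, all 4 calls other than Psmd1 were lost without WT_PBS_904, and those of Psmc2, Psmc3 and Psmd2 were also lost without WT_LPS_4 or WT_PBS_913. The Psmc2 call was also lost without WT_LPS_1 or WT_PBS_914, the Psmc3 call without WT_LPS_2 or any 1 of the KO PBS libraries, and the Psmd2 call without any 1 library other than WT_LPS_3 and WT_PBS_914.

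In the lid, 5 of 8 genes were called lower in each genotype, against the same 26.9% and 34.1% of all genes, and they were the same genes: Psmd3, Psmd6, Psmd7, Psmd11 and Psmd12. Under median-of-ratios scaling 1 lid gene (Psmd11) was called lower in KO and 0 in WT. Psmd8, Psmd13 and Psmd14, the deubiquitinase, had log2 fold changes of -0.05, -0.03 and 0.04 in KO and -0.15, -0.04 and -0.04 in WT and were not called. Psmd11 was 26.0, 29.0, 26.3 and 25.5 TPM in KO LPS libraries, against the KO PBS values given above, or 66.5% of the PBS level on the TPM + 1 scale (log2 fold change -0.59, SE 0.07, adjusted p = 9.78e-05). In WT LPS libraries it was 28.02, 29.0, 29.9 and 28.5 TPM, or 81.3% of the WT PBS level (log2 fold change -0.30, SE 0.07, adjusted p = 0.0065). LPS and PBS libraries did not overlap in either genotype. The KO call held in all 29 other settings, with -0.33 under median-of-ratios scaling, while the WT value turned to 0.03 there. The WT call was also lost under quantile normalisation (-0.07, adjusted p = 0.611) and voom on recovered reads (-0.15, adjusted p = 0.182). Rescaling without Gm23935, mitochondrial, ribosomal protein and haemoglobin genes lost it as well (-0.15, adjusted p = 0.141).

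Psmd3, a scaffold subunit of the lid, was 47.8, 49.2, 51.0 and 40.8 TPM in KO LPS libraries and 66.1, 63.7 and 70.3 TPM in KO PBS libraries (log2 fold change -0.49, SE 0.09, adjusted p = 0.00139). It was 47.5, 42.8, 51.4 and 43.4 TPM in WT LPS libraries and 68.6, 63.6 and 58.8 TPM in WT PBS libraries (log2 fold change -0.45, SE 0.09, adjusted p = 0.00231). The groups did not overlap, and the call held in 28 of 29 other settings in each genotype, median-of-ratios scaling being the exception, at -0.23 in KO and -0.12 in WT. Psmd7 fell in KO, where the LPS values given above stand against 103, 107 and 118 TPM in KO PBS libraries (log2 fold change -0.44, SE 0.09, adjusted p = 0.00218); under median-of-ratios scaling it was -0.17 and not called. In WT PBS libraries it was 122, 103 and 102 TPM (log2 fold change -0.26, SE 0.09, adjusted p = 0.0288), and the WT call was lost without WT_LPS_1, WT_LPS_2, WT_LPS_4 or WT_PBS_904 and turned to 0.07 under median-of-ratios scaling. Psmd12 fell in both genotypes (-0.30, adjusted p = 0.0192 in KO, -0.34, adjusted p = 0.00832 in WT), though under that scaling it was -0.03 in KO and -0.01 in WT and not called. Psmd6 fell in both (-0.36, adjusted p = 0.00771 in KO, -0.30, adjusted p = 0.0166 in WT). Under that scaling Psmd6 was -0.09 in KO and 0.03 in WT and not called. The Psmd12 call in KO was lost without KO_PBS_911 or KO_PBS_912 (adjusted p of 0.0695 and 0.0755), and the Psmd6 call in WT without WT_PBS_904 (adjusted p = 0.0867). Psma4, Psma5, Psmb7, Psmc3, Psmd1, Psmd3, Psmd9, Psmd13 and Psme1 overlap other genes on the opposite strand, and the labels do not state whether strand was used in counting. Psmb5 overlaps Mir686 and Psmd1 overlaps Gm21972 on the same strand, so their values may include reads of those genes.

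**Figure D4:**
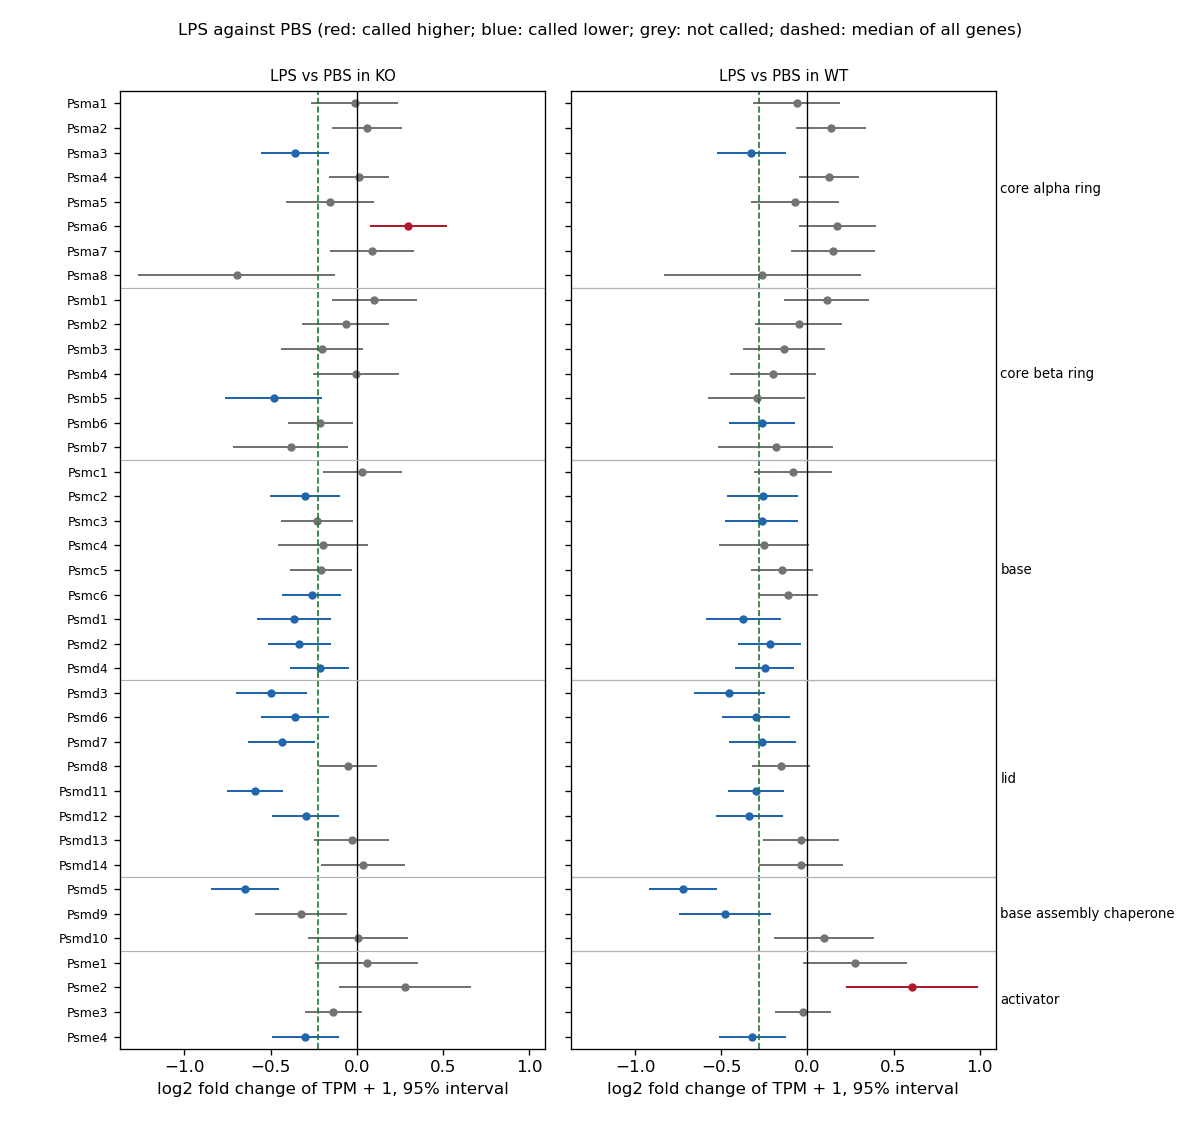
Log2 fold change of TPM + 1, LPS over PBS, with its 95% interval, for each of the 39 proteasome genes in KO (left) and WT (right), in the order of the subunit classes; the dashed line is the median of all genes, red is called higher and blue called lower. Blue points gather in the base and lid. On the TPM scale, 5 of 9 base and 5 of 8 lid genes were called lower in each genotype. Of all genes, 26.9% were called lower in KO and 34.1% in WT. Under median-of-ratios scaling, 0 base genes were called lower in either genotype, and 1 lid gene in KO and 0 in WT. Psmd5 lies farthest to the left of the called genes.

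Psmd5, a chaperone that holds base ATPases during assembly, had the largest fall of any called member in both genotypes. It was 13.8, 12.1, 14.5 and 13.05 TPM in KO LPS libraries and 22.2, 21.5 and 20.8 TPM in KO PBS libraries, or 63.7% of the PBS level on the TPM + 1 scale (log2 fold change -0.65, SE 0.09, adjusted p = 0.000169). It was 13.4, 12.6, 13.5 and 11.8 TPM in WT LPS libraries and 21.7, 22.1 and 21.6 TPM in WT PBS libraries, or 60.6% (log2 fold change -0.72, SE 0.09, adjusted p = 0.000107). All 8 LPS libraries lay below all 6 PBS libraries, with 14.5 TPM as the highest LPS value and 20.8 TPM as the lowest PBS value. The call held in all 29 other settings in both genotypes, with -0.40 in KO and -0.41 in WT under median-of-ratios scaling. A two-sided exact permutation test of Psmd5 gave p = 0.057 in each genotype, the smallest that 4 libraries against 3 allow.

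Psmd9, the second base chaperone, was 7.30, 6.94, 7.95 and 7.23 TPM in KO LPS libraries, against the KO PBS values given above, and missed the test (log2 fold change -0.32, SE 0.12, adjusted p = 0.0538). In WT LPS libraries it was 7.48, 7.89, 7.39 and 7.42 TPM, and it fell relative to WT PBS (log2 fold change -0.48, SE 0.12, adjusted p = 0.00764). The LPS libraries lay below the PBS libraries in both genotypes, and the WT value was -0.18 and not called under median-of-ratios scaling. Psmd10, also known as the oncoprotein gankyrin, had log2 fold changes of 0.01 in KO and 0.09 in WT.

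The activators split. Psme2, a subunit of the interferon-induced activator ring, was 161, 145, 145 and 137 TPM in KO LPS libraries and 118, 125 and 119 TPM in KO PBS libraries (log2 fold change 0.28, SE 0.17, adjusted p = 0.236). It was 147, 163, 255 and 124 TPM in WT LPS libraries and 115, 106 and 105 TPM in WT PBS libraries, a rise past the test (log2 fold change 0.60, SE 0.17, adjusted p = 0.0146). LPS libraries lay above PBS libraries in both genotypes, and the interaction did not pass (-0.32, adjusted p = 0.687). Without WT_LPS_3 the WT log2 fold change was 0.40, and the call was lost in a fit of the compared groups alone (adjusted p = 0.0654) and without the libraries rich in pituitary RNA (adjusted p = 0.053). Under median-of-ratios scaling Psme2 was called higher in KO as well (0.55, adjusted p = 0.0417). Psme2b, a near copy of Psme2 that may share its reads, was 69.2 to 109 TPM.

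Psme1, the partner of Psme2, was 150.4, 169, 156 and 153 TPM in KO LPS libraries and 142, 158 and 153 TPM in KO PBS libraries (log2 fold change 0.06, SE 0.14, adjusted p = 0.781). It was 144, 169, 211 and 127 TPM in WT LPS libraries and 138, 140.4 and 118 TPM in WT PBS libraries (log2 fold change 0.28, SE 0.14, adjusted p = 0.12). Both pairs of groups overlapped. Psme3, the nuclear relative of Psme1 and Psme2, had log2 fold changes of -0.13 in KO and -0.03 in WT, and its lowest and highest libraries were 82.4 to 100.5 TPM. Psme4, a large single-chain activator, was 42.4, 36.8, 38.0 and 40.2 TPM in KO LPS libraries and 48.9, 48.3 and 48.5 TPM in KO PBS libraries (log2 fold change -0.30, SE 0.09, adjusted p = 0.0183). It was 40.02, 45.3, 43.1 and 34.7 TPM in WT LPS libraries and 53.2, 49.9 and 49.7 TPM in WT PBS libraries (log2 fold change -0.32, SE 0.09, adjusted p = 0.011). Psme4 was thus lower without overlap in both genotypes on the TPM scale. Under median-of-ratios scaling it was -0.04 in KO and 0.01 in WT and not called. Its KO call was also lost without any 1 of the KO PBS libraries (adjusted p of 0.0513 to 0.0544).

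**Figure D5:**
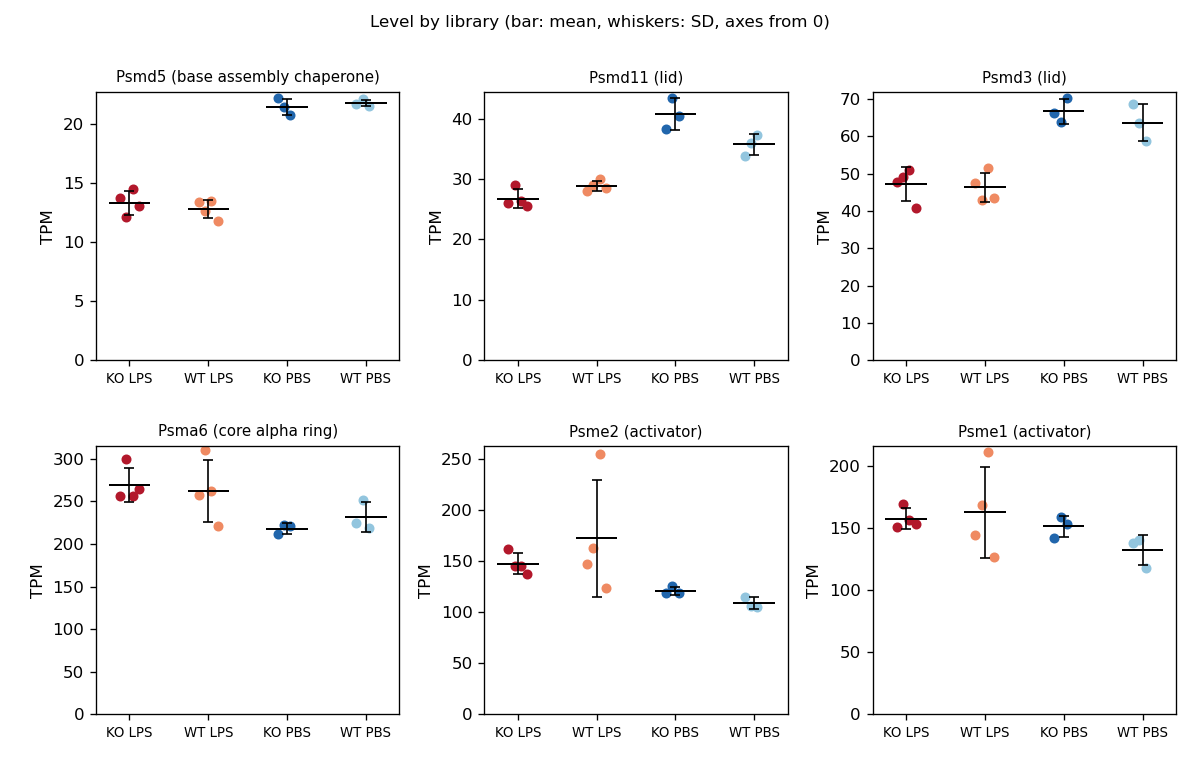
Level in TPM of Psmd5, Psmd11, Psmd3, Psma6, Psme2 and Psme1 in each library of the 4 groups, 1 point per library, with the mean as a bar and the SD as whiskers (n = 4 per LPS group, 3 per PBS group) and axes from 0. Psmd5, Psmd11 and Psmd3 are lower in every LPS library than in every PBS library, and WT_LPS_3 stands highest in Psme2 at 255 TPM and in Psme1 at 211 TPM.

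Interferon response genes were also higher under LPS. Of 20 interferon response genes, 7 were called higher in KO and 17 in WT, where 7.82% and 7.95% of all genes were. Their median log2 fold changes, LPS over PBS, were 0.97 in KO and 1.52 in WT. Under median-of-ratios scaling 13 and 20 were called higher, where 12.6% and 16% of all genes were. The summed level of the 20 interferon response genes was 5543 to 6568 TPM in KO LPS and 6073 to 12050 TPM in WT LPS libraries. It was 4703 to 5569 TPM in KO PBS and 4830 to 5800 TPM in WT PBS libraries. B2m alone, a part of the MHC class I complex, made up 4132 to 7787 TPM of these sums. The immunoproteasome genes, which replace the catalytic subunits after interferon, had 0 of 3 called in each of the 5 comparisons on the TPM scale. Of all genes, 0% (interaction) to 42% (LPS against PBS in WT) were called there. Under median-of-ratios scaling, 3 of the 3 were higher in WT (0.64 for Psmb8, 0.64 for Psmb9 and 0.51 for Psmb10), where 16% of all genes were. Psmb8 was 55.9 ± 1.22 TPM in KO LPS, 59.9 ± 17.0 TPM in WT LPS, 55.7 ± 4.14 TPM in KO PBS and 46.8 ± 4.74 TPM in WT PBS libraries (SD, n = 4 per LPS and 3 per PBS group).

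Genes that build, feed or regulate the proteasome were read from lists beside the members. Of 5 core assembly chaperones, 1 rose in KO under PBS: Psmg2, which pairs with Psmg1 to assemble alpha rings, was 52.1, 57.8 and 52.4 TPM in KO PBS and 43.9, 30.2 and 35.3 TPM in WT PBS libraries (log2 fold change 0.57, SE 0.12, adjusted p = 0.0474). All KO PBS libraries lay above all WT PBS libraries, and the call was lost under median-of-ratios scaling (0.55, adjusted p = 0.0607) and without any 1 of KO_LPS_1, KO_LPS_3, WT_LPS_1, WT_LPS_2, WT_LPS_3, the KO PBS libraries, WT_PBS_913 and WT_PBS_914 (adjusted p of 0.0568 to 0.167). In LPS relative to PBS libraries, 2 of the 5 fell in KO and 1 in WT, against 2 lower and 1 higher in KO and 0 lower and 1 higher in WT under median-of-ratios scaling. For this and the lists below, the shares of all genes are those given for the members on each scale. Psmg1 fell in both (-0.86, adjusted p = 0.000363 in KO, -0.62, adjusted p = 0.00296 in WT, the second not called under median-of-ratios scaling at -0.29), while Pomp, which matures the beta ring, was not called on the TPM scale (0.02, adjusted p = 0.897 in KO, 0.07, adjusted p = 0.489 in WT) and higher on the other (0.28 in KO, 0.40 in WT).

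Of 7 associated factors, 5 fell and 1 rose in KO and 4 fell in WT, against 1 lower and 1 higher in each genotype under median-of-ratios scaling. The ubiquitin receptor Adrm1 fell in KO (-0.31, adjusted p = 0.0175) and WT (-0.27, adjusted p = 0.0255), values that were -0.05 and 0.05 and not called under that scaling, and the calls were also lost without KO_PBS_911 or KO_PBS_915 in KO and without WT_LPS_1, WT_LPS_2, WT_PBS_904 or WT_PBS_913 in WT. The small lid subunit Sem1 rose in KO (0.39, adjusted p = 0.0448), a call lost without any 1 of KO_LPS_1, KO_LPS_2, KO_LPS_3, WT_LPS_2, the KO PBS libraries, WT_PBS_904 and WT_PBS_913 (adjusted p of 0.0535 to 0.162). Of the 4 ubiquitin genes, 2 rose and 2 fell in KO and 1 rose and 1 fell in WT, against 2 higher and 0 lower in each under median-of-ratios scaling. The polyubiquitin gene Ubb fell in KO (-0.39, adjusted p = 0.0121) and WT (-0.44, adjusted p = 0.00575), and was -0.13 and -0.11 and not called under median-of-ratios scaling; the KO call was also lost without KO_PBS_911 or KO_PBS_912. Rps27a, which encodes ubiquitin fused to a ribosomal protein, rose in KO (0.73, adjusted p = 0.00343) and WT (0.69, adjusted p = 0.00441), and was 1.00 and 1.03 under that scaling.

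Of 8 shuttle factors, which carry tagged proteins to the proteasome, 6 fell and 1 rose in KO and 5 fell and 1 rose in WT. Under median-of-ratios scaling these counts were 1 lower and 2 higher in KO and 1 lower and 3 higher in WT. The gene that rose in each on both scales was Zfand5 (0.59, adjusted p = 0.0217 in KO, 0.97, adjusted p = 0.00126 in WT), whose product binds the proteasome and ubiquitin. The KO call was lost without KO_LPS_1, KO_LPS_2, KO_PBS_912 or KO_PBS_915 (adjusted p of 0.052 to 0.102). Of 12 genes of the Nfe2l1 route, 6 fell and 1 rose in KO and 5 fell and 2 rose in WT, against 3 lower and 2 higher in KO and 0 lower and 4 higher in WT under that scaling.

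Nfe2l1, the factor that raises proteasome genes when the enzyme is inhibited, was 114, 114, 117 and 109.8 TPM in KO LPS libraries and 156, 161 and 152 TPM in KO PBS libraries (log2 fold change -0.45, SE 0.07, adjusted p = 0.000297). It was 122, 115, 109.8 and 101 TPM in WT LPS libraries and 155, 147 and 146 TPM in WT PBS libraries (log2 fold change -0.42, SE 0.07, adjusted p = 0.000538). LPS and PBS libraries did not overlap in either genotype, and under median-of-ratios scaling the values were -0.18 in KO, still called, and -0.09 in WT, not called. Between KO and WT it did not pass the test under LPS (0.03, adjusted p = 0.902) or PBS (0.06, adjusted p = 0.713).

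Mafg, a small Maf protein that pairs with Nfe2l1 on DNA, rose in KO under PBS, at 173, 169.9 and 162 TPM in KO PBS and 108, 107 and 91.3 TPM in WT PBS libraries (log2 fold change 0.72, SE 0.10, adjusted p = 0.00973). The groups did not overlap, and the call was lost without KO_PBS_911 (adjusted p = 0.0705) or KO_PBS_912 (adjusted p = 0.0617). Mafg did not pass under LPS (0.15, adjusted p = 0.571) or in the interaction (-0.57, adjusted p = 0.362). Of the 39 proteasome members, 0 were called between KO and WT under PBS, where 1.02% of all genes were. A link of Mafg to the members was not tested.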

How the data were processed

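Bulk RNA-seq of magnetically purified mouse microglia gave 14 libraries in 4 groups. The authors deposited 1 table of TPM per gene with the joined exon length of each gene. Per the submitters' processing notes, the tools named are STAR 2.7.10b, featureCounts 2.0.1, cutadapt 4.4 and FastQC 0.11.9; the build named is hg38, while the deposited gene IDs are mouse. Whether counting used strand is not given in the sources used here. TPM times length gave whole reads (within 0.02) in all libraries for 41273 of 41739 genes, and these reads give the depths quoted.

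TPM values were tested as log2(TPM + 1) with limma 3.58.1 in R 4.3.3, over 18724 genes with at least 1 TPM in at least 3 libraries. The fit held 4 group means and an intensity trend, with Benjamini-Hochberg adjustment over all genes tested and calls at an adjusted p under 0.05. The steps were tested on simulated data. Groups came from the sample titles. Members, subunit classes and gene lists were chosen with earlier results of these data known, and part of the lists came from that earlier work. Given in every library are, per comparison, the called members with the smallest p (up to 4 per direction, or the 2 smallest in each direction where none was called), the catalytic subunits, the activators and the extreme interaction estimates. Psmd5, Psmd9, Psmd1 and Psma8 beyond this rule, Psme2b and the contrast of subunit classes were chosen after their values were seen. Alternatives were other pseudocounts, filters, scalings, variance settings, voom on the recovered reads, a replicate block and libraries left out. TPM is a share of a library, so a feature that takes a large share lowers the rest. Counting intervals are not given, since the spread between libraries sets the errors.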

Additional observations from a re-analysis of the deposited data

Results flagged for a closer look

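Psmd12, a lid subunit, stood at 75.6 TPM in KO_LPS_4 and at 70.6, 70.9 and 70.6 TPM in the other KO LPS libraries, so the gap took 0.939 of the group's range, where 0.83 marks a value apart from 3 others. It was 1 of 78 groups of 4 libraries looked at, and chance marks about 1 in 20 such groups. KO_LPS_4 is the shallowest library. Psmb11, the thymus subunit left out of the members, had 7 recovered reads in WT_LPS_1 and 5 in KO_PBS_911, 3 and 1 in KO_LPS_3 and KO_LPS_1, and 0 in the other libraries, all WT PBS libraries included. These 2 counts lie above the 3 reads that a count of 0 allows in a library of the same depth. WT_LPS_1 was the deepest library, at 32304000 reads, and KO_PBS_911 held 18201000. The WT PBS libraries held 15686000 to 18065000, so the WT_LPS_1 count is not on their scale. No cause was tested.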

How the results depend on the processing

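No member was called between KO and WT, or for the interaction, in any of the alternatives run. Calls between LPS and PBS depended on the scaling of the libraries. Median-of-ratios scaling gave 7 members higher and 2 lower in KO (median log2 fold change 0.059) and 10 higher and 1 lower in WT (0.14), where 12.6% of all genes were higher and 10.2% lower in KO, and 16% and 13.3% in WT. Quantile normalisation gave 3 higher and 6 lower in KO (-0.057) and 4 higher and 4 lower in WT (-0.069), where 10.5% and 15.6% of all genes were in KO, and 13.1% and 17.9% in WT. Rescaling without Gm23935, mitochondrial, ribosomal protein and haemoglobin genes gave 1 higher and 4 lower in KO (-0.049), where 9.46% and 14.4% of all genes were. In WT it gave 6 higher and 3 lower (-0.038), where 9.82% and 21.6% of all genes were. Testing with voom on recovered reads gave 4 higher and 3 lower in KO (0.014) and 7 higher and 3 lower in WT (-0.017), where 10.6% and 13% of all genes were in KO, and 10.6% and 25.2% in WT. Median-of-ratios scaling turned the direction of Psmc6 (0.0036) and Psmd4 (0.051) in KO, and of Psma3 (0.0044), Psmb6 (0.068), Psmc2 (0.068), Psmc3 (0.067), Psmd11 (0.026), Psmd2 (0.11), Psmd4 (0.083), Psmd6 (0.031), Psmd7 (0.068), Psme4 (0.0075) and Adrm1 (0.052) in WT; voom turned Psmd4 in KO (0.012). Why Gm23935 and other abundant features differ between libraries was not tested. The call of Psma6 as higher in KO was lost (0 higher) with no filter on low values and with no intensity trend. It was also lost without the 3 libraries that are shallowest or rich in pituitary RNA. Of all genes, 4.49%, 7.64% and 7.06% were higher in KO, in that order. The last setting also left 7 lower in KO and 0 higher in WT, where 24.5% and 6.95% of all genes were. Without only the libraries rich in pituitary RNA, 0 were higher in WT, where 6.66% of all genes were. A fit of the compared groups alone gave 2 higher in KO, where 7.45% of all genes were. In WT it gave 0 higher and 9 lower, where 6.78% and 30.4% of all genes were. Leaving out each library in turn gave 9 to 17 lower and 0 to 2 higher in KO, and 8 to 18 lower and 1 to 3 higher in WT. Of all genes, 18.5% to 27.4% were then lower and 5.86% to 8.16% higher in KO. In WT, 24.7% to 35% were lower and 6.25% to 8.14% higher.

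The median over members ran from -0.25 to -0.17 in KO and from -0.23 to -0.11 in WT without each library, from -0.13 to -0.00 for KO against WT under LPS, from -0.06 to -0.00 under PBS and from -0.10 to 0.03 for the interaction. Scaling moved the KO against WT medians beyond these ranges. Median-of-ratios scaling gave -0.15 under LPS (all genes -0.01) and -0.05 under PBS (all genes -0.02). Quantile normalisation gave -0.07 under each (all genes 0.00 under LPS and 0.01 under PBS). Rescaling without Gm23935, mitochondrial, ribosomal protein and haemoglobin genes gave -0.03 under LPS and 0.00 under PBS. Without each library, and with Psma8 kept in the alpha ring, the lid minus the alpha ring ran from -0.36 to -0.30 in KO and from -0.34 to -0.27 in WT. For KO against WT it ran from -0.09 to -0.02 under LPS and from -0.06 to 0.02 under PBS.

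Same-numbered LPS libraries had r of 0.06, -0.06, -0.09 and -0.03 over genes, and libraries with unlike numbers had r of -0.09 to 0.09. With 4 libraries a group, such values cannot show whether the replicate numbers pair libraries. With the replicate block, 8 members were lower and 0 higher in KO, where 11.4% and 4.84% of all genes were. In WT, 5 were lower and 0 higher, where 11.6% and 4.44% of all genes were. The lid minus the alpha ring was -0.26 in KO with the block. The block takes 3 degrees of freedom from the LPS groups. With 3 libraries in each PBS group, small differences may have gone uncalled, and how small was not measured.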
